A study of Mus musculus with 5 samples.

Results

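The 10 genes described here, of 16498 in a single-cell RNA table of mouse aortic arch, belong to the circadian clock. They are Dbp, Tef, Hlf, Per1, Per2, Per3, Nr1d1, Nr1d2, Bhlhe41 and Arntl, which were taken by name, 9 (Dbp included) as genes whose rhythm runs near that of Dbp and Arntl as the gene that runs opposite to it. They were chosen by name with their UMI levels in the 2 groups already known, the measure used below, so their group differences are given below as a description, with no test. The table held 5 libraries of live cells sorted by DAPI from the aortic root to the curvature of mice that lacked Apoe and had been kept on normal chow for 28 weeks, with no age given beyond that. By the labels, 2 libraries were Oasl1+/+Apoe-/- (called Apoe-/- here) and 3 were Oasl1-/-Apoe-/-, in which the promoter and exon 2 of Oasl1 had been deleted in the whole body, on a C57BL/6 background. The design text gives pooling of 6 mice but does not say whether each library was its own pool. The spread between libraries may therefore be partly or wholly technical. The comparison asks how aortic cells of mice prone to atherosclerosis differ with the Oasl1 genotype. The mice lived in a light and dark cycle, and the hour at which each aorta was taken is not given in the sources used here, so the hour and the genotype cannot be told apart.

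In mammals the clock is a feedback loop of transcription that runs in nearly every cell and is set by light through the brain, by feeding and by hormones. BMAL1, the protein of Arntl, pairs with CLOCK on E-boxes and turns on the Period genes, the REV-ERB genes Nr1d1 and Nr1d2, Bhlhe41 and Dbp. The Period proteins and DEC2 (Bhlhe41) act back on BMAL1 and CLOCK, while the REV-ERB proteins repress Arntl through elements known as RREs, so that Arntl peaks when Dbp is low. Dbp, Tef and Hlf encode related factors that bind D-boxes and carry the rhythm to output genes. In the vessel wall, clock genes cycle in smooth muscle and endothelial cells and are known to affect vascular tone.

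RefSeq promoters on GRCm38.p6, which span 250 bases before to 50 bases after a start site, were matched for 9 of the 10 genes (all but Per2) with 12 start sites. They were searched on both strands for the motifs of this loop. The E-box CACGTG lay in promoters of 3 member genes (4 of the 12 member promoters) and in 7.15% of all 32851 promoters. The related E-box form CACGTT lay in 1 member gene (1 of 12 promoters) and 4.68% of all promoters. The D-box TTANGTAA lay in 1 member gene (1 of 12) and 2.32%, and the core of the RRE, AGGTCA, in 3 (3 of 12) and 16.3%. With so few promoters, no excess over these shares is read. The matches before the start are shown because the factors of this loop act through DNA words of these kinds. The motif is in capitals and each line runs 5′ to 3′ on the strand of the gene. Tef carried an E-box at both of its start sites, and Per1 and Bhlhe41 carried 1 each.
Tef, E-box, chr15:81802535-81802562, plus strand: tgctgtggctcCACGTGctgcagctggc
Tef, other start site, E-box, chr15:81811265-81811292, plus strand: acctggcccagCACGTGtctacatcgtt
Per1, E-box, chr11:69098772-69098799, plus strand: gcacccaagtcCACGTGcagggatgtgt
Bhlhe41, E-box, chr6:145865557-145865584, minus strand: ggtacgttccgCACGTGagctgggtgct
Nr1d1 carried the related E-box form on the opposite strand, so that its reverse complement is in capitals.
Nr1d1, chr11:98775389-98775416, minus strand: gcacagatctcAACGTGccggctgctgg
Per3 carried 2 D-boxes, the element bound by the products of Dbp, Tef and Hlf.
Per3, D-box, chr4:151044854-151044881, minus strand: cgacccgcgcgTTATGTAAggtactcgg
Per3, D-box, chr4:151044807-151044834, minus strand: cccgcccgcggTTATGTAAcccccgccg
Nr1d2, itself a factor that binds RREs, carried the core of an RRE, and Per1 carried it on the opposite strand, so that its reverse complement is in capitals.
Nr1d2, RRE core, chr14:18239167-18239194, minus strand: attggaagaagAGGTCAggaccgctcgt
Per1, RRE core, chr11:69098801-69098828, plus strand: tgacacagcccTGACCTcagtgggggcc
The other match to the RRE core was in Arntl, after the start. No match in these short windows was found for Dbp or Hlf. A match is a run of letters and does not show binding.

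The genes lay on GRCm38 as follows. Dbp (ENSMUSG00000059824) was on chromosome 7, 45705088 to 45710203, plus strand, and overlapped Sphk2 on the opposite strand. Nr1d1 (ENSMUSG00000020889) was on chromosome 11, 98767932 to 98775333, minus strand, and overlapped Thra on the opposite strand. Per3 (ENSMUSG00000028957) was on chromosome 4, 151003652 to 151044665, minus strand, and overlapped Camta1 on the same strand. How the counting used strand is not given in the sources used here, so the tags of these pairs may not be fully separated. Arntl (ENSMUSG00000055116) was on chromosome 7, 113207465 to 113314126, plus strand, and overlapped no other gene of the table. The remaining members also overlapped no other gene of the table.

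The libraries held 3212 to 4338 cells, 18260 in all, at medians of 4495 to 5186 unique molecular identifiers (UMIs) per cell. The median mitochondrial share was 4.91% and 5.0% in the Apoe-/- libraries and 3.90% to 4.03% in the others. Levels are means over cells of UMIs per 10000 UMIs of the cell (CP10K), per library. Tags of the targeted gene, 27 and 16 per Apoe-/- library, numbered 299, 257 and 315 in those labelled Oasl1-/-Apoe-/-, which is higher and not lower. A 3′ library tags the end of a transcript, away from the deleted promoter and exon 2, so the tags do not read the deleted part itself. Why they were higher was not tested, nor whether the labels of the groups were exchanged. Each direction below rests on the labels. Of 18094 distinct cell barcodes, 165 were in more than 1 library.

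Cells were assigned to a type when at least 3 of 6 fixed markers of that type, or at least 5 of 6 for smooth muscle, had a UMI and fewer than 3 of each other type did. The limit on smooth muscle markers in cells of other types was fewer than 5. This gave 9716 smooth muscle cells, 1316 endothelial cells, 924 fibroblasts, 3072 macrophages and 645 NK/T cells, with 2587 cells not described. Macrophages numbered 427 and 417 in the Apoe-/- libraries and 772, 704 and 752 in the others, and smooth muscle cells 2609 and 2853 against 1474, 1390 and 1390. Genes that were not used for the assignment followed the names. Lmod1, a smooth muscle gene, was at 7.10 to 10.2 CP10K in the smooth muscle cells and at most 1.44 CP10K in any other type. Vwf, an endothelial gene, was at 5.68 to 6.41 CP10K in endothelial cells, and Ctss, a protease gene of macrophages, was at 65.4 to 73.3 CP10K in macrophages. Clec3b was at 3.53 to 7.17 CP10K in fibroblasts, and Lck, a T cell kinase gene, at 5.19 to 6.31 CP10K in NK/T cells.

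In smooth muscle cells most of the clock genes lay apart between the groups. In the libraries labelled Oasl1-/-Apoe-/-, Dbp was 3.60 times its Apoe-/- level, the genes Per2, Per3, Hlf and Bhlhe41 were at 2.02 to 2.44 times, Tef and Nr1d2 at 1.70 and 1.77 times, and Arntl was at 0.680 times. Nr1d1 was at 1.17 times and Per1 at 1.05 times. With the 10 genes, 8 lay higher and 1 (Arntl) lower with no overlap between the libraries of the groups. Over all 9005 genes that passed the filter of 0.05 CP10K in these cells, 21.2% lay higher and 15.2% lower without overlap. Per3, among the 8, passed the filter only through the group where it was high. Since this contrast was known when the genes were chosen, nothing is read from their count. The median log2 difference was 0.72 over the 10 genes and 0.01 over all genes past the filter, on the scale of log2(CP10K + 0.05), which understates the change of low genes.

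**Figure D1:**
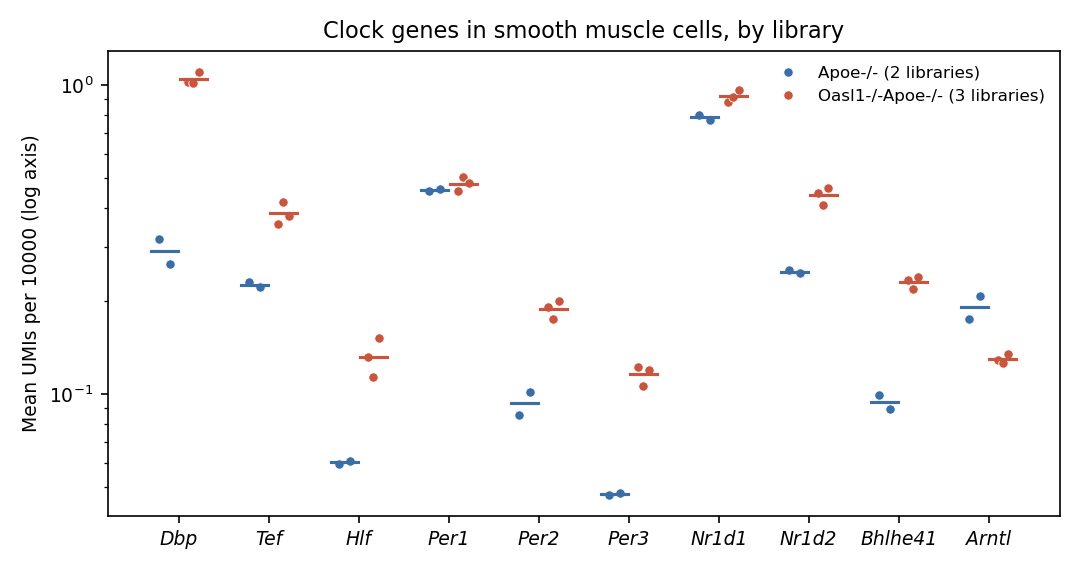
Mean level of each of the 10 clock genes in smooth muscle cells (UMIs per 10000, log axis), with a point for each library and a line at the group mean, blue for Apoe-/- and red for libraries labelled Oasl1-/-Apoe-/-. The red points lie above the blue points for 8 genes and below them for Arntl, while the points of Per1 overlap.

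Of the output factors that bind D-boxes, Dbp differed most. Its level in smooth muscle cells was 0.318 and 0.263 CP10K in the Apoe-/- libraries (from 424 and 361 UMIs) and 1.02, 1.02 and 1.10 CP10K in the libraries labelled Oasl1-/-Apoe-/- (779, 746 and 832 UMIs). The Apoe-/- mean was 0.291 ± 0.0388 (SD, n = 2), the other was 1.05 ± 0.0481 (SD, n = 3), and the log2 difference was 1.69. Tef, a close relative of Dbp, was at 0.231 and 0.222 CP10K against 0.356, 0.420 and 0.378 CP10K, a log2 difference of 0.65. Each library labelled Oasl1-/-Apoe-/- was above both others for Tef. Hlf, the remaining factor of this family, was at 0.0597 and 0.0609 CP10K (78 and 80 UMIs) against 0.132, 0.113 and 0.152 CP10K (96, 80 and 108 UMIs), a log2 difference of 0.72. The groups did not overlap for Hlf either, and its spread was wider in the libraries labelled Oasl1-/-Apoe-/- (SD 0.0192, n = 3) than in the Apoe-/- libraries (SD 0.00087, n = 2).

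The higher mean of Dbp came with more cells that held a Dbp UMI. Of smooth muscle cells, 10.8% (Wilson 95% interval 9.67 to 12.1) and 9.29% (8.28 to 10.4) had a Dbp UMI in the Apoe-/- libraries. The shares were 26.7% (24.5 to 29.1), 28.1% (25.8 to 30.5) and 30.9% (28.6 to 33.4) in the libraries labelled Oasl1-/-Apoe-/-. With each cell thinned to 1000 UMIs the shares were 3.04% and 2.57% against 7.51%, 8.45% and 9.68%, which left out 6 to 10 shallower cells of each library. Median depths of the smooth muscle cells were close, at 4910 and 4644 UMIs against 4954, 5048 and 5180 UMIs. For comparison, 3.36% to 5.72% of macrophages had a Dbp UMI at medians of 5043 to 5696 UMIs, below every share in smooth muscle cells. How much of the Dbp in either type was free RNA was not tested. No smooth muscle cell held more than 13 Dbp UMIs. Intervals cover the counting error within a library only and do not test the difference between the groups.

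The Period genes encode repressors that close the loop, and they did not differ alike in smooth muscle cells. Per2 was at 0.0857 and 0.102 CP10K in the Apoe-/- libraries and at 0.192, 0.175 and 0.201 CP10K in the others, a log2 difference of 0.74. Per3 was at 0.0474 and 0.0480 CP10K (63 and 62 UMIs) against 0.123, 0.106 and 0.119 CP10K (96, 73 and 89 UMIs), a log2 difference of 0.77. The groups did not overlap for Per2 or Per3. The Apoe-/- levels of Per3 were under the filter of 0.05 CP10K, so it passed only through the group where it was high. Per1, the Period gene that stress signals and glucocorticoids also induce, was at 0.454 and 0.461 CP10K (592 and 623 UMIs) against 0.453, 0.504 and 0.481 CP10K (337, 353 and 353 UMIs). Here the libraries overlapped, and the log2 difference was 0.06. Per1 was thus the member with the smallest difference in these cells.

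Nr1d1 and Nr1d2 encode REV-ERBα and REV-ERBβ, nuclear receptors that repress Arntl. In smooth muscle cells Nr1d1 was at 0.801 and 0.768 CP10K against 0.881, 0.911 and 0.966 CP10K, a log2 difference of 0.21. Nr1d2 was at 0.252 and 0.246 CP10K against 0.448, 0.410 and 0.464 CP10K, a log2 difference of 0.71. Both genes lay higher without overlap in the libraries labelled Oasl1-/-Apoe-/-, and the ratio of group means was 1.17 for Nr1d1 and 1.77 for Nr1d2. The share of smooth muscle cells with an Nr1d1 UMI was 30.1% and 28.2% against 32.6%, 32.9% and 35.4%, and after thinning to 1000 UMIs it was 7.30% and 7.70% against 8.20%, 8.02% and 9.83%.

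Bhlhe41 encodes DEC2, a repressor that competes for E-boxes. Its level in smooth muscle cells was 0.0994 and 0.0898 CP10K in the Apoe-/- libraries (132 and 118 UMIs) and 0.235, 0.219 and 0.239 CP10K in the others (165, 154 and 179 UMIs). The means were 0.0946 ± 0.00679 (SD, n = 2) and 0.231 ± 0.0107 (SD, n = 3), a log2 difference of 0.96 that was the next after that of Dbp. Every library labelled Oasl1-/-Apoe-/- had a higher Bhlhe41 level than either Apoe-/- library, which is a description with no test.

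Arntl encodes BMAL1, the activator of the loop, and was the member that lay lower. Its level in smooth muscle cells was 0.175 and 0.208 CP10K (235 and 277 UMIs) in the Apoe-/- libraries, against 0.129, 0.126 and 0.135 CP10K (95, 91 and 90 UMIs) in those labelled Oasl1-/-Apoe-/-. The means were 0.192 ± 0.0232 (SD, n = 2) and 0.130 ± 0.00459 (SD, n = 3), a log2 difference of −0.42. Clock, whose product is the partner of BMAL1, was at 0.423 and 0.497 CP10K against 0.456, 0.458 and 0.421 CP10K, which overlapped (log2 difference −0.04, SE 0.0785, limma adjusted p 0.823). Npas2, which encodes another partner of BMAL1, was at 0.126 and 0.102 CP10K against 0.0806, 0.0710 and 0.0868 CP10K, lower without overlap but not past the threshold (log2 difference −0.34, SE 0.105, limma adjusted p 0.0533).

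The ratio of the mean level of Dbp to that of Arntl sets both genes side by side within each library. In smooth muscle cells it was 1.81 and 1.26 in the Apoe-/- libraries and 7.89, 8.05 and 8.14 in the libraries labelled Oasl1-/-Apoe-/-. From summed UMIs, which weight deep cells more, the log2 ratio was 0.85 and 0.38 against 3.04, 3.04 and 3.21. By either measure the 3 latter libraries were above both Apoe-/- libraries.

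Marker lists of 11 cell types and states were summed inside the smooth muscle cells, and 5 of the sums did not overlap between the groups. The summed macrophage markers were at 0.209 to 0.243 CP10K in the Apoe-/- libraries and 0.481 to 0.638 CP10K in the others, with 4 of 6 markers higher without overlap. The summed erythroid markers were at 1.42 to 1.45 CP10K against 0.387 to 0.490 CP10K, with 4 of 4 markers lower. The summed smooth muscle markers were at 561 to 597 CP10K against 529 to 539 CP10K, with 3 of 6 markers lower. The summed monocyte markers were at 1.06 to 1.16 CP10K against 1.49 to 1.57 CP10K, with 1 of 6 higher, and the NK/T markers at 0.0161 to 0.0171 CP10K against 0.0203 to 0.0266 CP10K, with 1 of 6 higher and 1 lower. The summed fibroblast markers overlapped, at 4.70 to 5.14 CP10K against 4.92 to 5.23 CP10K, while 4 of 6 were higher. None of these lists had a defining marker at 0 in every library. Dbp was lower in macrophages than in smooth muscle cells in each library. The part of these lists and of the lower mitochondrial share in the differences above was not tested.

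Smooth muscle cells were also split at 563.1 CP10K, the median over all these cells of the sum of their 6 contractile markers, a split chosen after seeing the data. This held 1582 and 1442 cells of the Apoe-/- libraries and 646, 589 and 599 cells of the others above the median, and the share was smaller in each of the latter. The ratio of group means of Dbp was 3.64 above the median and 3.51 below it, and that of Arntl was 0.654 and 0.681. Bhlhe41 differed more below the median (ratio 2.88) than above it (ratio 1.96), and the difference between these ratios was not tested. Per1 had a log2 difference of −0.05 above the median and 0.06 below it. Nr1d1 had a ratio of 1.19 above the median, without overlap. Below it the ratio was 1.07 and the libraries overlapped, at 1.03 and 0.904 CP10K against 0.965, 1.08 and 1.06 CP10K. The Apoe-/- mean of Nr1d1 was 0.64 CP10K above the median and 0.97 CP10K below it. The part of this in its difference over all smooth muscle cells was not tested.

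**Figure D2:**
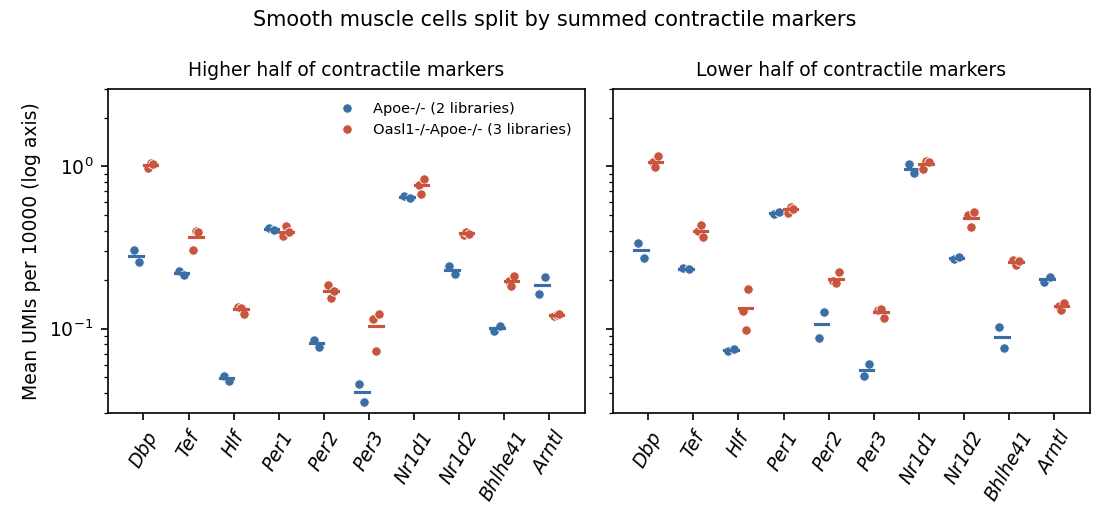
Mean level of the 10 clock genes (UMIs per 10000, log axis) in smooth muscle cells above (left) and below (right) the median of summed contractile markers, a point per library and a line at each group mean. Dbp is above 0.9 in every library labelled Oasl1-/-Apoe-/- and below 0.4 in both Apoe-/- libraries on either side, and Arntl is lower in the former on either side.

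In endothelial cells Dbp again lay higher and Arntl lower, while most other members overlapped between the groups. Of the 9 members that passed the filter there, Dbp and Per3 lay higher and Arntl lower without overlap, where 13.9% of 9440 genes lay higher and 14.2% lower. The median log2 difference of these 9 was 0.24, against −0.01 over all genes past the filter. Dbp was at 0.476 and 0.455 CP10K (45 and 47 UMIs) against 1.06, 0.733 and 1.08 CP10K (83, 62 and 75 UMIs), a log2 difference of 0.95. The second library labelled Oasl1-/-Apoe-/- was the lowest of its group and still above both Apoe-/- libraries. Arntl rested on few UMIs, with 0.125 and 0.0984 CP10K (12 and 12 UMIs) against 0.0651, 0.0652 and 0.0869 CP10K (7, 6 and 7 UMIs). Per3 was at 0.172 and 0.268 CP10K against 0.349, 0.305 and 0.305 CP10K, with the groups close to one another.

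The remaining members past the filter overlapped between the groups in endothelial cells. Nr1d1 was at 0.602 and 0.681 CP10K against 0.535, 0.318 and 0.730 CP10K, a log2 difference of −0.32, and Per1 had a log2 difference of −0.20. Tef, Nr1d2, Per2 and Bhlhe41 had log2 differences of 0.24, 0.15, 0.47 and 0.52. Bhlhe41 was under 0.05 CP10K in both Apoe-/- libraries, so it passed the filter only through the other group. Hlf was under the filter of 0.05 CP10K, with 2 to 6 UMIs per library. Inside the endothelial cells the summed fibroblast markers were at 5.38 to 6.00 CP10K against 8.06 to 10.6 CP10K, the smooth muscle markers at 9.05 to 11.3 CP10K against 4.54 to 7.99 CP10K and the erythroid markers at 1.84 to 1.99 CP10K against 0.335 to 0.561 CP10K. Of the fibroblast markers, 4 of 6 were higher, of the smooth muscle markers 4 of 6 lower and of the erythroid markers 3 of 4 lower without overlap, and Dpt was at 0 in every library. Macrophage markers were at 0.293 to 0.309 CP10K against 0.693 to 0.902 CP10K, with 2 of 6 higher, monocyte markers at 0.0903 to 0.17 CP10K against 0.225 to 0.284 CP10K, with 2 of 6 higher and 1 lower, and NK/T markers at 0.0181 to 0.0419 CP10K against 0.0529 to 0.126 CP10K, with 2 of 6 higher and Cd3g at 0 in every library. The endothelial markers themselves were at 58.6 to 59.0 CP10K against 56.1 to 57.3 CP10K, with 2 of 6 higher and 1 lower. Their part in these values was not tested.

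In fibroblasts Dbp was already high in the Apoe-/- libraries. Its level was 1.06 and 0.844 CP10K (50 and 42 UMIs) against 1.45, 1.08 and 0.972 CP10K (162, 155 and 152 UMIs), and the libraries overlapped. Arntl was lower without overlap, at 0.194 and 0.165 CP10K (14 and 10 UMIs) against 0.0795, 0.119 and 0.0925 CP10K (15, 21 and 19 UMIs), a log2 difference of −0.65. Bhlhe41 was also lower, at 0.223 and 0.218 CP10K (9 and 11 UMIs) against 0.0941, 0.139 and 0.140 CP10K (12, 24 and 20 UMIs), a log2 difference of −0.65 that ran opposite to that in smooth muscle cells. The fibroblasts of the Apoe-/- libraries were few, 105 and 107 cells against 229, 245 and 238, and shallower, with medians of 4034 and 4357 UMIs against 6139 to 6397 UMIs.

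Among the other members in fibroblasts, Nr1d2 was at 0.309 and 0.270 CP10K against 0.413, 0.384 and 0.538 CP10K and Per1 at 0.292 and 0.332 CP10K against 0.527, 0.484 and 0.372 CP10K. These 2 were higher without overlap and Arntl and Bhlhe41 lower, where 17.6% of all genes lay higher and 16.5% lower, and the log2 differences were 0.53 and 0.49. Hlf, with 3 to 9 UMIs per library, and Tef, Per2, Per3 and Nr1d1 overlapped between the groups. The median log2 difference was 0.20 over the 10 members and 0.02 over the 9450 genes past the filter. In these cells the summed smooth muscle markers were at 29.8 to 30.9 CP10K against 17.7 to 24.7 CP10K, with 5 of 6 lower without overlap, macrophage markers were at 0.221 to 0.368 CP10K against 0.587 to 0.894 CP10K, with 5 of 6 higher, and erythroid markers at 1.57 to 1.75 CP10K against 0.453 to 0.562 CP10K, with 3 of 4 lower. Monocyte markers were at 2.08 to 2.30 CP10K against 3.90 to 5.64 CP10K, with 1 of 6 higher and Chil3, Ccr2 and F10 at 0 in every library. Neutrophil markers were at 1.18 to 1.63 CP10K against 0.730 to 0.878 CP10K, with 1 of 6 lower and Cxcr2 and Retnlg at 0 in every library. Their part in these values was not tested.

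In macrophages the clock genes rested on few UMIs, and 5 of the 10 members passed the filter. Dbp was at 0.0922 and 0.0518 CP10K (19 and 15 UMIs) against 0.0868, 0.117 and 0.102 CP10K (43, 42 and 47 UMIs), and the libraries overlapped. After thinning to 1000 UMIs, 0.753% to 1.04% of macrophages held a Dbp UMI. Bhlhe41 was at 0.308 and 0.197 CP10K against 0.164, 0.164 and 0.171 CP10K, lower without overlap, with a log2 difference of −0.46. Nr1d2 was at 0.108 and 0.103 CP10K against 0.0939, 0.0537 and 0.0914 CP10K, also lower without overlap, with a log2 difference of −0.28. Nr1d1 overlapped, with a log2 difference of 0.11. Bhlhe41 and Nr1d2 thus lay on opposite sides in macrophages and in smooth muscle cells, a difference between types that was not tested.

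Per1 was the 1 member past the filter that lay higher without overlap in macrophages, with 2 lower, where 26.3% of 7895 genes lay higher and 17.3% lower. It was at 0.297 and 0.209 CP10K (75 and 54 UMIs) against 0.366, 0.364 and 0.408 CP10K (154, 144 and 183 UMIs), a log2 difference of 0.52. The median log2 difference of the 5 members past the filter was 0.11 and that of all genes 0.05. Hlf was listed at 0 in all libraries. Per3 had 1 and 2 UMIs against 5, 10 and 10 UMIs, Arntl 4 and 10 UMIs against 20, 26 and 24 UMIs, and Tef and Per2 had 6 to 25 UMIs per library. In macrophages the summed smooth muscle markers were at 4.07 to 4.14 CP10K against 1.84 to 3.41 CP10K, with 3 of 6 lower without overlap, and the summed macrophage markers were at 191 to 213 CP10K against 229 to 235 CP10K, with 5 of 6 higher and 1 lower. The erythroid markers were at 1.94 to 2.29 CP10K against 0.493 to 0.692 CP10K, with 4 of 4 lower. Fibroblast markers were at 0.0837 to 0.191 CP10K against 0.379 to 0.556 CP10K, with 4 of 6 higher, and cycling markers at 0.397 to 0.425 CP10K against 0.718 to 0.805 CP10K, with 3 of 4 higher. Dendritic markers were at 0.203 to 0.211 CP10K against 0.269 to 0.366 CP10K, with 3 of 6 higher. Their part in these values was not tested.

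NK/T cells numbered 80 to 165 per library, and since 2 libraries were under the least number of 100 set for a test, none was run. Dbp had 0 and 0 UMIs against 4, 1 and 4 UMIs, and Hlf and Bhlhe41 were at 0 in every library. Per1 was found most often, with 13 and 11 UMIs against 9, 14 and 24 UMIs. Nr1d2 had 8 and 4 UMIs against 1, 4 and 7 UMIs, and Arntl 2 and 4 UMIs against 2, 2 and 4 UMIs.

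**Figure D3:**
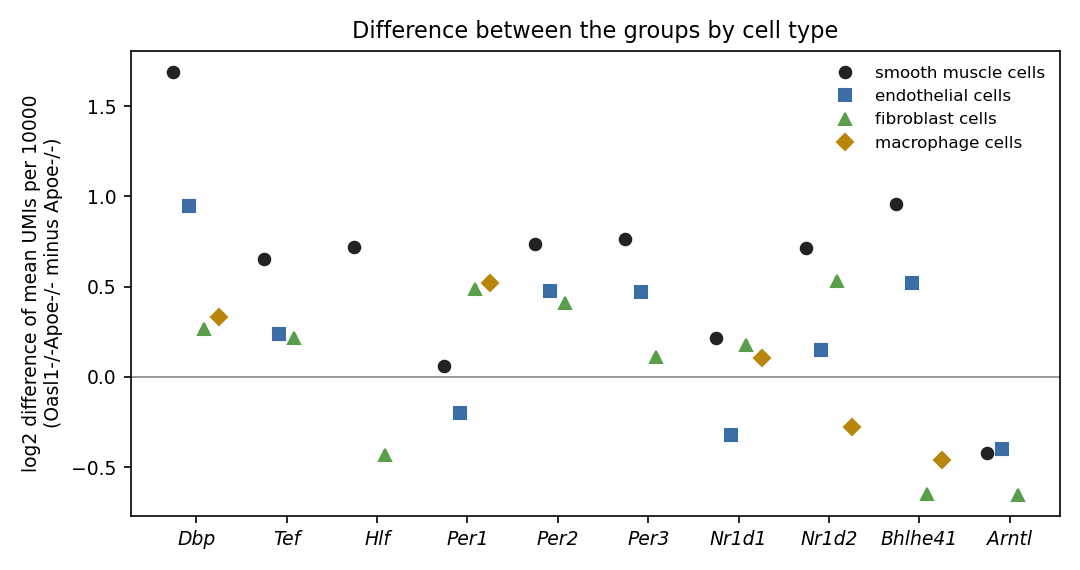
The log2 difference in mean UMIs per 10000 between the libraries labelled Oasl1-/-Apoe-/- (n = 3) and Apoe-/- (n = 2) for each clock gene that passed the filter, with a symbol for each cell type and a line at 0. The points stand for group differences without their spread, and they show Dbp above 0 in all 4 cell types, Arntl below 0 in the 3 types where it passed, and Bhlhe41, Nr1d2, Nr1d1, Per1 and Hlf on both sides of 0.

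The order of cell types by Dbp differed between the groups of libraries. In the Apoe-/- libraries fibroblasts (0.844 to 1.06 CP10K) were above endothelial cells (0.455 to 0.476 CP10K), these were above smooth muscle cells (0.263 to 0.318 CP10K) and these above macrophages (0.0518 to 0.0922 CP10K), with no overlap between neighbours. In the libraries labelled Oasl1-/-Apoe-/-, fibroblasts (0.972 to 1.45 CP10K), smooth muscle cells (1.02 to 1.10 CP10K) and endothelial cells (0.733 to 1.08 CP10K) overlapped, and macrophages (0.0868 to 0.117 CP10K) lay below them. For Arntl in the Apoe-/- libraries, smooth muscle cells (0.175 to 0.208 CP10K) and fibroblasts (0.165 to 0.194 CP10K) overlapped and endothelial cells (0.0984 to 0.125 CP10K) lay below both. In the libraries labelled Oasl1-/-Apoe-/-, smooth muscle cells (0.126 to 0.135 CP10K) lay above fibroblasts (0.0795 to 0.119 CP10K), and fibroblasts and endothelial cells (0.0651 to 0.0869 CP10K) overlapped.

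**Figure D4:**
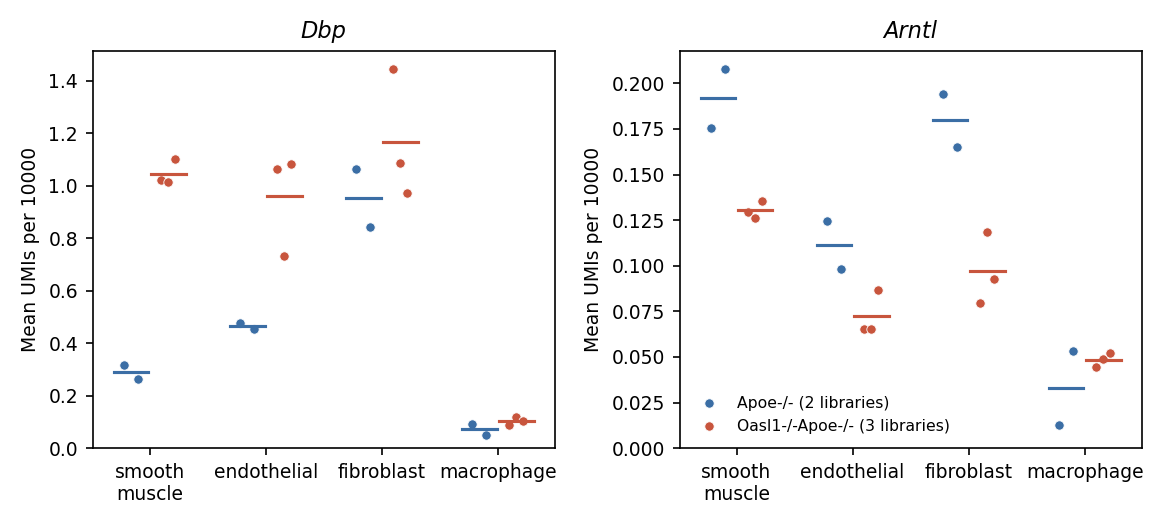
Mean level of Dbp (left) and Arntl (right) in UMIs per 10000 in 4 cell types, with a point per library and a line at the mean of each group. Dbp in smooth muscle and endothelial cells is higher in the libraries labelled Oasl1-/-Apoe-/-, with smooth muscle at 1.02 to 1.10 against 0.263 to 0.318, and Arntl is lower in these libraries in smooth muscle cells, endothelial cells and fibroblasts.

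The ratio of Dbp to Arntl was higher without overlap in 3 of the 4 types in the libraries labelled Oasl1-/-Apoe-/-. In endothelial cells it was 3.82 and 4.62 against 16.4, 11.3 and 12.5, and in fibroblasts 5.48 and 5.11 against 18.2, 9.13 and 10.5. In macrophages, where the ratio rested on 4 to 26 Arntl UMIs per library, it was 7.34 and 0.974 against 1.95, 2.38 and 1.96, and the libraries overlapped. The difference of the mean log2 ratio was 2.41 in smooth muscle cells, 1.65 in endothelial cells, 1.19 in fibroblasts and −0.36 in macrophages.

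Over all cells of a library, Dbp was at 0.303 and 0.261 CP10K against 0.723, 0.681 and 0.719 CP10K and Arntl at 0.142 and 0.168 CP10K against 0.0950, 0.0943 and 0.102 CP10K. Nr1d1, higher in smooth muscle cells, was lower over all cells (ratio of means 0.917). In such whole-library values, fewer cells of a type and less RNA per cell cannot be told apart, and the libraries differed in their numbers of smooth muscle cells and macrophages.

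A list of 22 other clock genes, of which 21 were in the table, was compared with limma fits across all genes, at a Benjamini-Hochberg adjusted p of 0.05. The list was chosen with earlier results of these data known. In smooth muscle cells 14 were tested, of which 2 rose and 1 fell, where 4.93% of all genes passed higher and 2.52% lower. Bhlhe40, which encodes DEC1, the relative of DEC2, rose from 0.268 and 0.308 CP10K to 0.464, 0.499 and 0.435 CP10K (log2 difference 0.61, SE 0.0815, limma adjusted p 1.72e-05). Nfil3, whose product represses through D-boxes where DBP activates, fell from 1.09 and 1.06 CP10K to 0.891, 0.892 and 0.865 CP10K (log2 difference −0.27, SE 0.0608, limma adjusted p 0.00652). Tspan4, a tetraspanin gene, rose (log2 difference 0.31, SE 0.0685, limma adjusted p 0.00535). The kinase genes Csnk1d and Csnk1e, Cry2, which encodes the partner of the Period proteins, and Rora, which encodes an activator at RREs, overlapped between the groups, with log2 differences of −0.02, 0.07, −0.01 and 0.01. These 3 calls held under 12 alternatives. The median of the list was 0.00 in smooth muscle cells, beside 0.01 over all genes.

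Of all genes in endothelial cells, 2.36% passed higher and 0.996% lower, in fibroblasts 2.11% and 1.46%, and in macrophages 9.89% and 6.09%. In endothelial cells 15 of the list were tested and 1 passed, Tspan4, which rose (log2 difference 0.84, SE 0.147, limma adjusted p 1.33e-04) but not without Apoe-/- replicate 2 (adjusted p 0.111). In fibroblasts 13 were tested and 1 passed, Rora, which fell from 1.19 and 1.12 CP10K to 0.618, 0.612 and 0.745 CP10K (log2 difference −0.77, SE 0.167, limma adjusted p 0.0227). Without replicates 1 or 2 labelled Oasl1-/-Apoe-/- Rora did not pass (adjusted p 0.114 and 0.115). In macrophages 13 were tested, of which 3 rose and 1 fell. Bhlhe40 fell there from 1.73 and 1.65 CP10K to 1.25, 1.22 and 1.12 CP10K (log2 difference −0.48, SE 0.0880, limma adjusted p 0.0011), the opposite of its course in smooth muscle cells. Those that rose were Ciart, whose product represses BMAL1 and CLOCK (0.83, limma adjusted p 0.00574), Wee1, a kinase gene of the cell cycle under clock control (0.67, adjusted p 0.0113), and Fbxw11, which encodes a ubiquitin ligase subunit that acts on Period proteins (0.66, adjusted p 0.0140). The count of 4 was 1 without replicate 1 and 2 without replicate 3 labelled Oasl1-/-Apoe-/-, and Bhlhe40 alone passed under all 12 alternatives. Ciart was at 0.0268 and 0.0129 CP10K (7 and 4 UMIs) against 0.073, 0.069 and 0.080 CP10K (32, 19 and 39 UMIs). It was tested only because of the group where it was high, so its call is no evidence of a rise. Ciart was under the filter without any 1 of the 3 libraries labelled Oasl1-/-Apoe-/-. The median log2 difference of the list was 0.12 in endothelial cells, 0.17 in fibroblasts and 0.15 in macrophages, beside −0.01, 0.02 and 0.05 over all genes.

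Per1 and Per2 also answer to acute stimulation and to glucocorticoids, so lists of 20 immediate early genes and 12 glucocorticoid response genes were compared as well. These lists too were chosen with earlier results of these data known, so their calls are not independent tests. In smooth muscle cells 19 immediate early genes were tested, where 4.93% of all genes passed higher and 2.52% lower. Of the 19, 0 rose and 4 fell by limma, with 7 at an unadjusted p under 0.05 in either direction. The 4 were Jun (log2 difference −0.32), Atf3 (−0.29), Nr4a1 (−0.23) and Btg2 (−0.23), with limma adjusted p from 1.16e-04 to 0.0118. Without Apoe-/- replicate 1 the count was 7, and Btg2 did not pass without Apoe-/- replicate 2 or replicate 3 labelled Oasl1-/-Apoe-/-. Of 12 glucocorticoid response genes tested, 4 rose and 2 fell, beside the same shares of all genes. Lcn2, which encodes a secreted iron carrier, rose from 0.0371 and 0.0364 CP10K to 0.259, 0.224 and 0.142 CP10K (log2 difference 1.55, limma adjusted p 3.89e-08). Its Apoe-/- levels were under the filter of 0.05 CP10K, so it was tested only because of the group where it was high. The metallothionein genes Mt1 and Mt2 rose by 0.21 and 0.25 and Fkbp5, which encodes a chaperone of the glucocorticoid receptor, by 0.36. Fkbp5 lay near the filter, with log2 differences of 0.07 and 0.58 at pseudocounts of 0.5 and 0.01. Its call is therefore no evidence of a rise. Cdkn1a and Errfi1 fell by 0.38 and 0.19 on the log2 scale. Without replicate 3 labelled Oasl1-/-Apoe-/- the count of 6 was 2, Fkbp5 did not pass in 8 of 12 alternatives, and Lcn2 and Cdkn1a passed under all 12. The medians were −0.02 for immediate early genes and 0.00 for glucocorticoid response genes, beside 0.01 over all genes.

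In endothelial cells 0 of 16 immediate early genes tested rose and 8 fell by limma, with 10 at an unadjusted p under 0.05 in either direction, where 0.996% of all genes passed lower. The 8 were Nr4a1, Atf3, Zfp36, Ier3, Fosb, Ier2, Jun and Fos, with log2 differences from −0.47 to −0.27. The count was 2 without Apoe-/- replicate 2, 4 without replicate 1 and 3 without replicate 3 labelled Oasl1-/-Apoe-/-, and Zfp36 alone passed under all 12 alternatives. Of 11 glucocorticoid response genes, Lcn2 rose (1.76), where 2.36% of all genes passed higher. In fibroblasts 20 immediate early genes were tested, where 2.11% of all genes passed higher and 1.46% lower. Of the 20, Arc rose (0.81) and Btg2 and Ier2 fell (−0.44 and −0.42). Without replicates 1, 2 or 3 labelled Oasl1-/-Apoe-/- the count was 0, 0 and 1, and over the 12 alternatives Arc did not pass in 9, Ier2 in 8 and Btg2 in 5. In these cells 0 of 12 glucocorticoid response genes passed by limma, with 2 at an unadjusted p under 0.05 and 1 by limma-voom on summed UMIs. In macrophages 13 of 17 immediate early genes tested rose and 1 (Ier3) fell, where 9.89% of all genes passed higher and 6.09% lower. Of these 14 calls, Egr1 was lost in 7 of 12 alternatives, Jun in 6, Fosb in 4 and Ier3 in 3. Those that rose included Dusp1, from 11.5 and 10.8 CP10K to 19.8, 17.9 and 20.0 CP10K (log2 difference 0.78, limma adjusted p 9.76e-08), Btg2 (0.78), Nr4a2 (0.75), Fos (0.64) and Atf3 (0.59). Tsc22d3 (0.60), Fkbp5 (0.57) and Cdkn1a (0.56) rose and Sgk1 fell (−0.58) among 9 glucocorticoid response genes tested in macrophages. Fkbp5 did not pass in 9 of 12 alternatives, while the other 3 passed in all 12. The median log2 differences of immediate early genes were −0.28 in endothelial cells, −0.13 in fibroblasts and 0.39 in macrophages, and those of glucocorticoid response genes 0.17, −0.01 and 0.11, beside −0.01, 0.02 and 0.05 over all genes. The difference between cell types was not tested.

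The genes most like Dbp were sought over 20 profiles, the 5 libraries in 4 cell types, among 6576 genes tested in every type. By Pearson r of log2(CP10K + 0.05), a description with no test since the profiles share libraries and depth, they were Gm12840 (0.929), Serpinh1 (0.925), Laptm4a (0.924), Nupr1 (0.921) and Fkbp7 (0.918). Of the members past the filter in every type, Nr1d2 was the nearest, at 0.887 and place 54, followed by Nr1d1 at 0.855 and place 154. Per1 was at 0.518 and Bhlhe41 at −0.16 (place 4854). Of these 4, Bhlhe41 followed Dbp least across the profiles although the groups differed alike for both in smooth muscle cells. Macrophages lay below the other types for Dbp, so r also ranks genes by cell type. It does not by itself show a likeness of rhythm.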

How the data were processed

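Aortic cells were profiled with the 10x 3′ v2 kit. The authors mapped reads to mm10 with Cell Ranger 3.1.0, kept cells with over 200 genes and under 10% mitochondrial UMIs in Seurat 4.0.3, removed doublets with DoubletFinder and log-normalized. Values were deposited on a natural log scale, as ln(1 + UMIs per 10000), since every cell summed to 10000 within 0.00344 once the log was undone. Values divided by the smallest of the cell were whole for 100% (tolerance 0.01) and were taken as UMIs. Total UMIs per library were 16959976 to 19813039. No doublet caller was run here, and cell names of the study were not used.

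Cell types were gated on fixed markers. The gate limits and a least number of 100 cells per library for a test were set after the data were seen. The mean CP10K per library was the replicate value. Since it is not given whether each library was its own pool of mice, the limma p may not measure variation between mice. log2(mean + 0.05) was fitted with limma 3.58.1 (eBayes with trend, R 4.3.3, 2 against 3 libraries) for all genes with a mean of at least 0.05 CP10K, with Benjamini-Hochberg adjustment over all of them and a threshold of 0.05. The study tested cells as replicates, which was not taken over. The script was checked on simulated data.

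The members and the gene lists were chosen with earlier results of these data known. A count of members past the threshold had been planned and is left out, since the choice used this contrast. Named genes were the 10 members, genes of the 3 lists past the threshold (up to 10 per list and type) and the 5 genes most correlated with Dbp; others were named after their values were seen. Alternatives were other pseudocounts (0.5 and 0.01), no filter, limma-voom on summed UMIs, the mean of the natural log values, a stricter gate (4 markers, 6 for smooth muscle), each library left out and the replicate number as a block. The sums of 1 marker list are not reported here.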

Additional observations from a re-analysis of the deposited data

Results flagged for a closer look

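In some genes every library labelled Oasl1-/-Apoe-/- lay on one side of both Apoe-/- libraries in one cell type and on the other side in another. These are values side by side, and the difference between the cell types was not tested. Among the members, Bhlhe41 had a log2 difference of 0.96 in smooth muscle cells, −0.65 in fibroblasts and −0.46 in macrophages. Nr1d2 had 0.71 in smooth muscle cells and 0.53 in fibroblasts but −0.28 in macrophages. Bhlhe40, the relative of Bhlhe41, had 0.61 in smooth muscle cells and −0.48 in macrophages. Thus both DEC genes lay higher in smooth muscle cells and lower in macrophages. In fibroblasts they lay on opposite sides, with Bhlhe41 lower and Bhlhe40 higher without overlap (log2 difference 0.40, limma adjusted p 0.180).

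Of the listed genes that are no members, those past the limma threshold in opposite directions in different types are given with the types where they passed. The 8 immediate early genes among them rose in macrophages and fell in the types named. Atf3 had 0.59 in macrophages, −0.29 in smooth muscle cells and −0.44 in endothelial cells. Btg2 had 0.78, with −0.23 in smooth muscle cells and −0.44 in fibroblasts. Jun had 0.35, with −0.32 in smooth muscle cells and −0.28 in endothelial cells, and Nr4a1 had 0.39, with −0.23 and −0.47 in the same types. Ier2 had 0.54, with −0.29 in endothelial cells and −0.42 in fibroblasts. Fos had 0.64 in macrophages and −0.27 in endothelial cells, Fosb 0.26 and −0.33, and Zfp36 0.44 and −0.43. Cdkn1a, from the glucocorticoid list, had 0.56 in macrophages and −0.38 in smooth muscle cells. By the lack of overlap alone, other immediate early values ran another way. Ier3 had 0.07 in smooth muscle cells with −0.37 in macrophages and −0.37 in endothelial cells, Egr1 had 0.06 in smooth muscle cells and 0.35 in macrophages with −0.23 in endothelial cells, and Zfp36 had 0.12 in smooth muscle cells.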

How the results depend on the processing

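The direction of the members' log2 differences was kept under 12 alternatives in 120 of 120 values in smooth muscle cells and 60 of 60 in macrophages, a description with no bearing on stability since the genes were chosen with these differences known. It was kept in 103 of 107 values in endothelial cells (exceptions in Tef, Per3 and Nr1d2) and 114 of 120 in fibroblasts (Tef, Per2, Per3 and Nr1d1). The cause of the changed counts below was not tested. With no filter, the genes past the threshold were 244 in smooth muscle cells (671 as reported), 194 in endothelial cells (317) and 198 in fibroblasts (337). With no filter the list counts were 2 glucocorticoid genes in smooth muscle cells, 2 immediate early genes in endothelial cells, 1 in fibroblasts, and 2 other clock genes in macrophages. By limma-voom on summed UMIs there were 519 genes in endothelial cells and, in fibroblasts, 1 immediate early and 1 glucocorticoid gene. With the mean of the natural log values there were 536 genes and 2 other clock genes in fibroblasts, and 3 immediate early and 2 glucocorticoid genes in endothelial cells. With the stricter gate fibroblasts had 215 genes, 0 other clock genes and 1 immediate early gene. Above and below the median of contractile markers, a split added after seeing the data, there were 414 and 332 genes and 2 and 2 glucocorticoid genes, and 9 immediate early genes above it.

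With the replicate number as a block, macrophages had 636 genes past and 1 other clock gene, against 1262 and 4, while smooth muscle cells had 691, endothelial cells 328 and fibroblasts 355. Replicate 3 labelled Oasl1-/-Apoe-/- has no partner and adds nothing to that fit. The numbers pair no samples by the labels, and the correlation of same-numbered deviations was −0.03 to 0.05, so the block is given only here.

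With each library left out in turn, a lone Apoe-/- library was assumed to vary like the other group. The counts of all genes were 371 to 951 in smooth muscle cells (371 without replicate 3 and 429 without replicate 1 labelled Oasl1-/-Apoe-/-), 181 to 289 in endothelial cells (200 and 181 without Apoe-/- replicates 1 and 2), 172 to 753 in fibroblasts (581 and 753 without Apoe-/- replicates 1 and 2, 172 to 174 without any 1 of the others) and 726 to 1609 in macrophages (833 and 726 without replicates 2 and 3 labelled Oasl1-/-Apoe-/-). Immediate early genes were 3 to 7, 2 to 6 and 0 to 3 in the first 3 of these types. Glucocorticoid genes were 2 to 7 in smooth muscle and 1 to 2 in endothelial cells. Other clock genes were 0 to 1 in endothelial cells, 0 to 2 in fibroblasts and 1 to 4 in macrophages. From summed UMIs, the differences of the log2 ratio of Dbp to Arntl were 2.48, 1.51, 1.15 and −0.49 in the order of the report. With 2 against 3 libraries and 6 to 12 Arntl UMIs in endothelial libraries, small differences of low genes could not be seen.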
